A study of Mus musculus with 6 samples.

Results

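Collagen crosslinking and processing enzymes were followed in mammary tumors of NeuT/ATTAC mice by RNAseq. The group held 10 genes, chosen by name and looked up by Ensembl gene ID in the GRCm38 annotation, among 54532 gene IDs measured in each tumor. They were 5 lysyl oxidases (Lox, Loxl1, Loxl2, Loxl3 and Loxl4), 3 lysyl hydroxylases (Plod1, Plod2 and Plod3), the procollagen C-proteinase Bmp1 and its enhancer Pcolce. All 10 were found, and all 10 passed the filter of a mean of 0.5 FPKM (fragments per kilobase of exon, scaled to the sequencing depth) that left 15069 genes for testing.

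The labels give 3 tumors from mice treated with IgG and 3 from mice treated with an anti-PD-1 monoclonal antibody. Mice of both groups carried MMTV-NeuT, in which a mammary tumor virus promoter drives Erbb2 in the mammary epithelium, and FAT-ATTAC, which on AP20187 removes adipocytes and leads to fibrosis. The FAT-ATTAC mice, of C57BL/6 origin, had been crossed into FVB. AP20187 was given to both groups at 0.4 mg/kg, starting at an age of 6 weeks, and the antibody at 100 μg per injection, starting at 8 weeks. An untreated or non-fibrotic tumor was not analysed here, so that every comparison is between antibodies within the fibrotic model. The labels list separate tumors, whereas the paper speaks of RNA pooled by group, and the p-values given here measure only the spread between these libraries.

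Collagen is modified inside the cell, trimmed outside it and then crosslinked. Lysyl hydroxylases act on lysines of the nascent chains in the endoplasmic reticulum, Bmp1 removes the C-propeptide of the secreted procollagen with the help of Pcolce, and lysyl oxidases, which need copper, turn lysine and hydroxylysine side chains into aldehydes from which the covalent crosslinks form. In mammary tumors, crosslinked collagen is known as the stiff component of the stroma.

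Between 21075641 and 23852764 reads per tumor could be recovered from the deposited FPKM. Markers of mammary epithelium and tumor were mixed. They had a sum over 10 genes, most of it Epcam, Krt8, Krt18 and Cldn3, of 2210 to 3032 FPKM under IgG and 3115 to 4018 FPKM under anti-PD-1, without overlap, but 4 of the 10 had a log2 fold change below 0, with Krt19 the lowest at -2.03 (limma adjusted p = 0.404), and Krt5 and Krt14 stayed under 3 FPKM in all tumors. Adipocyte markers (5 genes) and T cell markers (6 genes) all failed the filter. Fibroblast markers (11 genes, 3 of them collagens) summed to 94.7 to 251 FPKM under IgG and 103 to 377 FPKM under anti-PD-1, so that the range within a group was wider than the step between the groups. Of these 11, 7 had a log2 fold change above 0, with Col3a1 highest at 0.77. The other 4 (Pdgfra, Pdgfrb, Dcn and Lum) were below 0, with Lum lowest at -0.24. Skeletal muscle markers (5 genes) summed to 0.608 to 147 FPKM and were high in IgG replicate 2 and anti-PD-1 replicates 1 and 2. Macrophage markers (7 genes) summed to 187 to 328 FPKM under IgG and 243 to 392 FPKM under anti-PD-1. All 7 had a log2 fold change above 0, against 50.8% of all genes. Fcgr1 at 0.0019 and Adgre1 at 0.0055 were nearly level, and Cd68 was highest at 0.76. Smooth muscle and pericyte markers (7 genes) summed to 37.6 to 42.3 and 29.4 to 54.4 FPKM. Of the 6 tested, 4 were below 0, with Rgs5 lowest at -0.46 and Acta2 highest at 0.55. Endothelial markers (6 genes, all below 0) summed to 15.1 to 21.1 and 9.66 to 18.96 FPKM. Chondrocyte markers (8 genes) summed to 261 to 401 FPKM under IgG and 488 to 783 FPKM under anti-PD-1 without overlap. Most of this step was in Comp. Sox9 went the other way, with a log2 fold change of -0.32. The groups overlapped for Sox9, for Col9a1 (0.13) and for Col2a1 (1.00), while Matn1 and Hapln1 were listed at 0 in all tumors. The part of any cell type in the differences of the enzymes was not tested. IgG replicate 1 was more like the 3 anti-PD-1 tumors (r = 0.951 to 0.958 of log2(FPKM + 1) across genes, which are not independent replicates) than like IgG replicates 2 and 3 (r = 0.937 and 0.935), so values without it are given for Loxl3, Loxl4, Bmp1 and Plod2. In such bulk tumors, fewer cells of a type and less RNA per cell cannot be told apart.

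The summed lysyl oxidase level was higher in the anti-PD-1 tumors, mainly through Loxl3. The FPKM total of the 5 genes was 72.3, 18.7 and 28.9 in replicates 1 to 3 of IgG against 99.6, 101 and 128 in those of anti-PD-1, with no overlap (exact permutation test, two-sided throughout, p = 0.1, which is the smallest p that 3 tumors against 3 can give). Without Loxl3, a sum added after the values were seen, the other 4 genes had 28.7, 7.79 and 15.9 FPKM under IgG and 41.5, 13.7 and 36.4 FPKM under anti-PD-1, and the groups overlapped (exact permutation test, p = 0.3). Lysyl hydroxylases had the opposite sign, with sums of 56.8, 50.9 and 76.1 FPKM under IgG and 47.7, 32.5 and 51.1 FPKM under anti-PD-1, and here the groups overlapped (exact permutation test, p = 0.2).

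**Figure D1:**
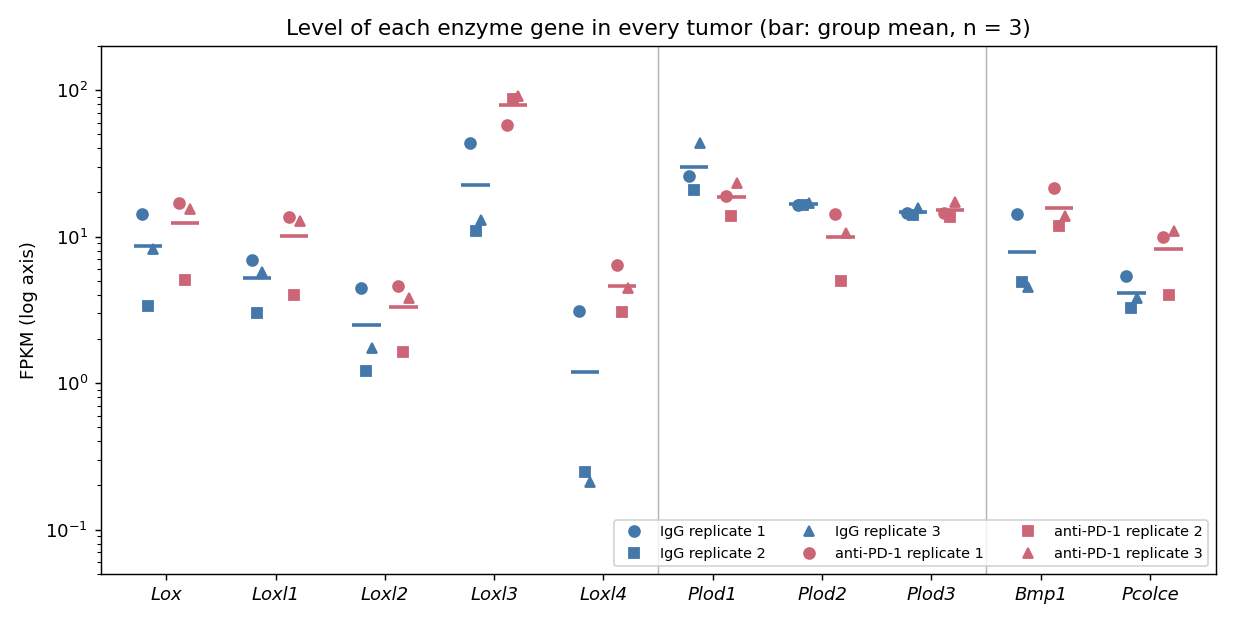
FPKM of each of the 10 genes on a log axis, with 1 point per tumor (blue IgG, red anti-PD-1, shape by replicate) and a bar at the mean of 3 tumors. Loxl3 lies between 58.0 and 91.4 FPKM in anti-PD-1 tumors and at 43.5 FPKM or less in IgG tumors, Plod2 is the other gene without overlap, and IgG replicate 1 lies well above the other IgG tumors in Loxl3, Loxl4 and Bmp1.

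Tested across all genes with limma on log2(FPKM + 1), none of the 10 genes had a Benjamini-Hochberg adjusted p under 0.05, and neither did any of the 15069 genes (0.0%), while 1848 genes (12.3%) had an unadjusted p under 0.05. Limma's voom on the recovered reads also called 0 genes. The study listed genes by looser thresholds, of which the fold (1.5) and the unadjusted p (under 0.05) are used here, and not its minimum raw score. By these 2 thresholds, called those of the study below, 3 of the 10 enzymes were higher (Loxl3, Loxl4 and Bmp1), against 3.9% of all genes tested. One of the 10 (Plod2) was lower by the same rule, against 4.53%, which makes 4 of 10 in either direction against 8.43%. Without IgG replicate 1, 3 of the 10 were higher and 0 were lower, against 6.64 and 8.18% of all genes in that fit. The count of 3 higher genes dropped to 1 when IgG replicate 2, IgG replicate 3 or anti-PD-1 replicate 1 was left out and to 2 when anti-PD-1 replicate 3 was, and it was 5 when anti-PD-1 replicate 2 was. Counting direction alone, 8 of the 10 had a log2 fold change above 0, against 50.8% of all genes, and the median was 0.63 against 0.01 for all genes tested. The groups did not overlap in 1 gene that was higher (Loxl3, against 9.3% of all genes) and 1 that was lower (Plod2, against 8.75%).

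**Figure D2:**
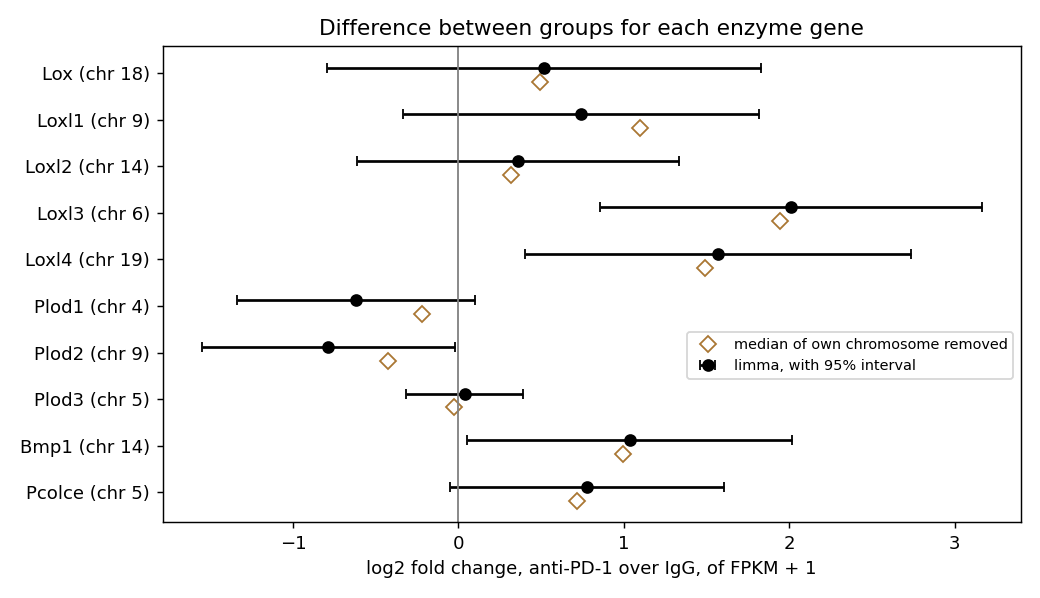
Log2 fold change of anti-PD-1 over IgG tumors for each gene (black points, limma, bars are 95% intervals) and the same after the median of the gene's own chromosome was removed in each tumor (open diamonds). The intervals of Loxl3, Loxl4 and Bmp1 lie above 0 and that of Plod2 below 0, and the diamonds of Plod1 and Plod2 lie closer to 0 than their points.

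Loxl3 (ENSMUSG00000000693, chromosome 6 from 83034173 to 83052562), a lysyl oxidase with scavenger receptor domains, had an FPKM of 43.5, 10.9 and 12.95 in replicates 1 to 3 of IgG against 58.0, 87.0 and 91.4 in those of anti-PD-1. Every anti-PD-1 tumor was above every IgG tumor, and the gap between the highest IgG tumor and the lowest anti-PD-1 tumor was smaller than the distance of IgG replicate 1 from the other IgG tumors. The means were 22.5 ± 18.3 (SD, n = 3) and 78.8 ± 18.1 (SD, n = 3), a 3.51-fold step. On the log2(FPKM + 1) scale the difference was 2.01 (SE 0.49, 95% interval 0.85 to 3.16, limma adjusted p = 0.344), the 32nd highest of the 15069 genes. Between 1210 and 10057 reads stood behind these values. Loxl3 kept to the study's thresholds in all 15 alternative fits. Dropping IgG replicate 2 gave its lowest log2 fold change (1.65) and dropping IgG replicate 1 its highest (2.60). In the last of these fits, which drops the IgG tumor most like the other group, the limma adjusted p was 0.0432, and over all 15 fits it ran up to 0.760. Htra2 overlaps Loxl3 on the opposite strand with a mean of 9.22 FPKM and a log2 fold change of -0.25, and whether reads were counted by strand is not given in the sources used here.

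Loxl4 (ENSMUSG00000025185, chromosome 19 from 42593982 to 42612813), the closest relative in domain layout to Loxl2 and Loxl3, was the scarcest enzyme of IgG tumors. It had an FPKM of 3.10, 0.245 and 0.212 under IgG and of 6.41, 3.03 and 4.42 under anti-PD-1. IgG replicate 1 reached the lowest anti-PD-1 tumor, so that the groups overlapped, while IgG replicates 2 and 3 held only 25 and 22 reads of the gene. Its log2 fold change was 1.57 (SE 0.50, 95% interval 0.40 to 2.74, limma adjusted p = 0.355) and 2.15 without IgG replicate 1. When 0.1 rather than 1 was added, it was 2.69, and with voom on the reads it was 3.04, since the added 1 exceeds the level of the low tumors. Leaving out IgG replicate 2, IgG replicate 3 or anti-PD-1 replicate 1 put it outside the thresholds of the study, at log2 fold changes of 1.29, 1.27 and 1.35.

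Lox, Loxl1 and Loxl2 were higher on average but within the spread of the tumors. Lox (ENSMUSG00000024529, chromosome 18 from 52516067 to 52529867), the founding member that crosslinks collagen and elastin, had 14.2, 3.34 and 8.20 FPKM under IgG and 16.9, 5.03 and 15.5 FPKM under anti-PD-1. The log2 fold change of Lox was 0.52 (SE 0.56, limma adjusted p = 0.731), with a 95% interval from -0.79 to 1.83 that leaves room for either direction. Loxl1 (ENSMUSG00000032334, chromosome 9 from 58287738 to 58313186), known for its part in elastic fiber renewal, had 6.96, 3.01 and 5.76 FPKM under IgG and 13.7, 3.98 and 12.7 FPKM under anti-PD-1. In Loxl1, anti-PD-1 replicate 2 lay below 2 of the 3 IgG tumors, and the log2 fold change was 0.74 (SE 0.46, limma adjusted p = 0.535). Loxl2 (ENSMUSG00000034205, chromosome 14 from 69609068 to 69695834), which also acts on basement membrane collagen, had 4.48, 1.20 and 1.74 FPKM under IgG and 4.57, 1.62 and 3.78 FPKM under anti-PD-1. Its groups overlapped almost fully, with a log2 fold change of 0.36 (SE 0.41, limma adjusted p = 0.749). In all 3 genes, IgG replicate 2 and anti-PD-1 replicate 2 were the lowest tumor of their group. Leaving out 1 tumor moved the log2 fold change of Lox to between 0.034, when IgG replicate 2 was dropped, and 1.02, when this was anti-PD-1 replicate 2. For Loxl1 the same 2 tumors gave 0.45 and 1.24. The log2 fold change of Loxl2 was 0.088 when IgG replicate 2 was dropped and 0.75 when this was IgG replicate 1.

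FPKM is per length, so that the levels of family members can be set side by side. Loxl3, Lox and Loxl1 held the first 3 places in this order in 6 of 6 tumors, with Lox between 1.11 and 2.04 times Loxl1, a step smaller than the spread of either gene between tumors. Loxl3 made up 60.3, 58.2 and 44.9% of the lysyl oxidase FPKM under IgG and 58.3, 86.4 and 71.5% under anti-PD-1. Its mean share was 54.5% ± 8.36 (SD, n = 3) and 72.1% ± 14.1 (SD, n = 3), and the groups overlapped through anti-PD-1 replicate 1 (exact permutation test, p = 0.2). The share of Lox was lower in each anti-PD-1 tumor than in each IgG tumor, with 22.0% ± 5.64 (SD, n = 3) under IgG and 11.3% ± 6.00 (SD, n = 3) under anti-PD-1 (exact permutation test, p = 0.1). The FPKM of Lox itself was not lower but higher on average (log2 fold change 0.52). The share of Loxl2 was 6.22% ± 0.202 and 3.05% ± 1.49 (SD, n = 3 each), also without overlap (exact permutation test, p = 0.1), although its own FPKM overlapped. The order of the last 2 places differed between the groups. Loxl4 was 0.693, 0.204 and 0.122 times Loxl2 under IgG and 1.40, 1.87 and 1.17 times Loxl2 under anti-PD-1, a ratio picked after the values were seen (exact permutation test, p = 0.1).

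**Figure D3:**
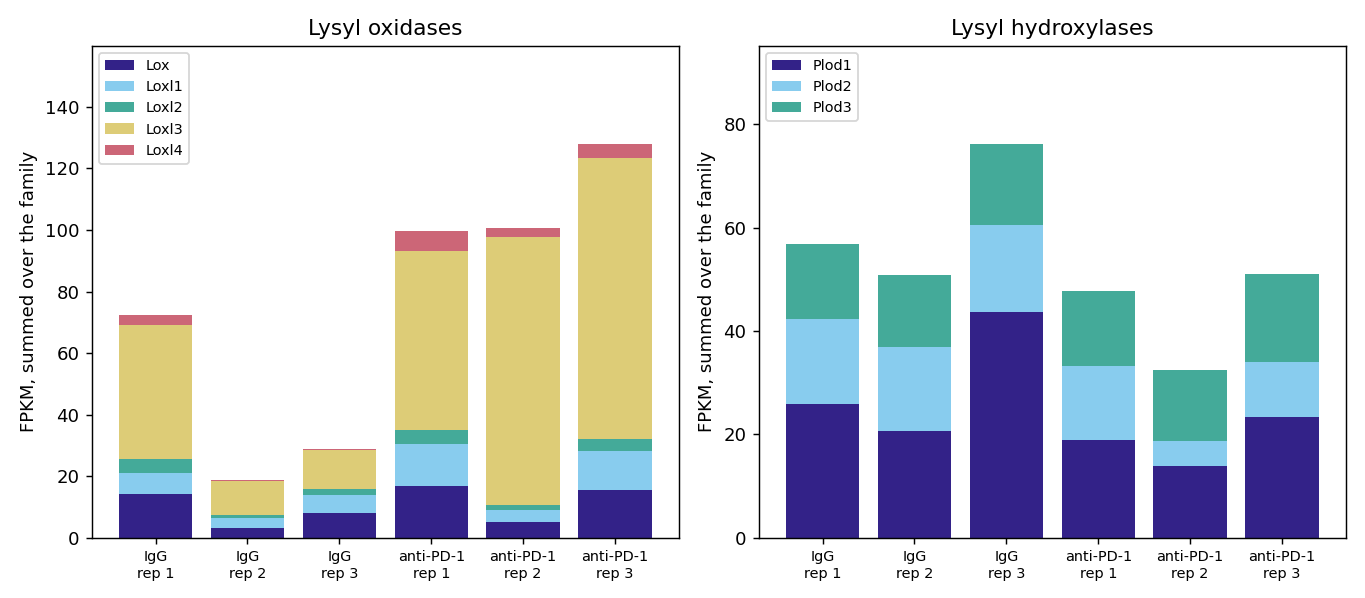
FPKM summed over the lysyl oxidases (left) and the lysyl hydroxylases (right), with 1 bar per tumor split by gene. Loxl3 fills 44.9 to 60.3% of the left bars under IgG and 58.3 to 86.4% under anti-PD-1, and the Plod2 part of the right bars is smallest in anti-PD-1 replicate 2.

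Plod2 (ENSMUSG00000032374, chromosome 9 from 92542223 to 92608428) encodes the lysyl hydroxylase of the collagen telopeptides, on which hydroxylysine-derived crosslinks depend. It had a nearly constant FPKM of 16.4, 16.3 and 16.99 in IgG tumors and of 14.2, 4.98 and 10.6 in anti-PD-1 tumors. Every anti-PD-1 tumor was below every IgG tumor, and replicate 2 was the lowest by far. The means were 16.6 ± 0.375 (SD, n = 3) and 9.93 ± 4.65 (SD, n = 3), and the log2 fold change was -0.79 (SE 0.33, 95% interval -1.55 to -0.02, limma adjusted p = 0.400). Without anti-PD-1 replicate 2 it was -0.40, whereas dropping IgG replicate 1 left it at -0.79. Plod2 was outside the thresholds of the study in 8 of 15 alternative fits, namely without a filter, without the trend of the variance, with chromosome medians removed and without any one tumor other than anti-PD-1 replicate 1.

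Plod1 (ENSMUSG00000019055, chromosome 4 from 147909753 to 147936767), which hydroxylates lysines of the triple helix, had 25.9, 20.7 and 43.6 FPKM under IgG and 18.96, 13.8 and 23.35 FPKM under anti-PD-1. The groups overlapped, IgG replicate 3 stood far above the rest, and the log2 fold change was -0.62 (SE 0.31, 95% interval -1.34 to 0.10, limma adjusted p = 0.449). Dropping IgG replicate 3 put it at -0.32, and dropping IgG replicate 2 at -0.84, where Plod1 met the thresholds of the study and Plod2 did not. Plod3 (ENSMUSG00000004846, chromosome 5 from 136987019 to 136996648), which also carries the glycosyltransferase activities that add sugars to hydroxylysine, was the steadiest of the 10 genes. It had 14.5, 13.9 and 15.5 FPKM under IgG and 14.5, 13.7 and 17.2 FPKM under anti-PD-1, a log2 fold change of 0.04 (SE 0.15, limma adjusted p = 0.938) whose sign was negative with chromosome medians removed (-0.024). The 95% interval from -0.32 to 0.39 bounds a change of Plod3 more tightly than that of any other member. Znhit1 overlaps Plod3 on the opposite strand with a mean of 27.3 FPKM and a log2 fold change of 0.53.

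Within the family, Plod1 stood first in 6 of 6 tumors, though nearly level with Plod3 in anti-PD-1 replicate 2 (13.8 against 13.7 FPKM). Plod3 was 0.885, 0.855 and 0.915 times Plod2 under IgG and 1.02, 2.75 and 1.62 times Plod2 under anti-PD-1 (exact permutation test, p = 0.1, ratio picked after the values were seen). Their order was the opposite in the 2 groups, but anti-PD-1 replicate 1 was close to a tie. As shares of the family FPKM, Plod3 had 24.4% ± 3.61 (SD, n = 3) under IgG and 35.4% ± 6.04 (SD, n = 3) under anti-PD-1 without overlap (exact permutation test, p = 0.1). The FPKM of Plod3 itself hardly differed (log2 fold change 0.04), while Plod1 and Plod2 were lower at -0.62 and -0.79. The shares of Plod1 and Plod2 overlapped between the groups (exact permutation test, p = 0.5 and 0.3).

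Plod1 and Plod2 lie on chromosomes 4 and 9, whose genes were lower in anti-PD-1 tumors as a whole. The median log2 fold change was -0.40 over 926 tested genes of chromosome 4 and -0.36 over 798 of chromosome 9. On chromosome 9, 16.7% of the genes were lower by the thresholds of the study, 21.2% were lower without overlap of the groups, and 7.89% had a log2 fold change below that of Plod2. On chromosome 4 the same 2 counts were 22.6 and 30.2%, and 25.5% of the genes had a log2 fold change below that of Plod1. With the median of the own chromosome removed in each tumor, Plod2 was at -0.43 (limma adjusted p = 0.621) and Plod1 at -0.22 (limma adjusted p = 0.810), and Plod2 no longer met the thresholds of the study. Loxl1, also on chromosome 9, went the other way and was at 1.10 after the same step (limma adjusted p = 0.467). The part of the chromosomes in these differences was not tested further.

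**Figure D4:**
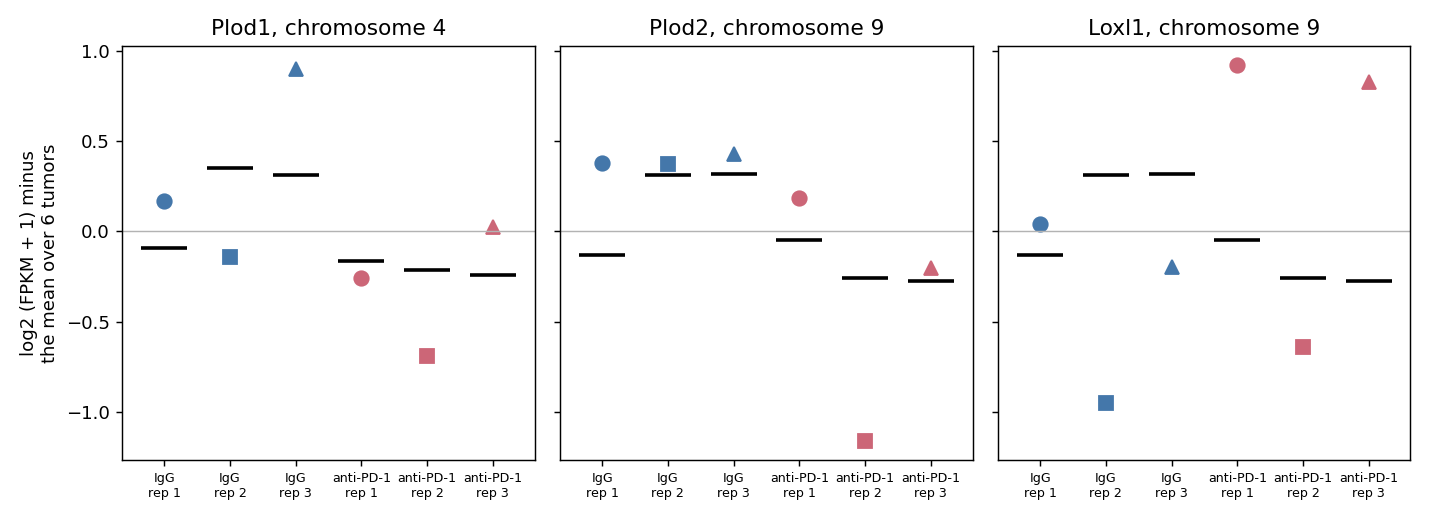
Log2(FPKM + 1) of Plod1, Plod2 and Loxl1 in each tumor minus the mean of the gene over 6 tumors (points), beside the median of the same quantity over all tested genes of its chromosome (black bars). The bars of chromosomes 4 and 9 are above 0.3 in IgG replicates 2 and 3 and below 0 in the other tumors, and Plod2 lies near or above its bar in all tumors but anti-PD-1 replicate 2.

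Bmp1 (ENSMUSG00000022098, chromosome 14 from 70474558 to 70520234), the metalloproteinase that also trims the propeptide of Lox, had 14.2, 4.86 and 4.52 FPKM under IgG and 21.4, 11.7 and 13.8 FPKM under anti-PD-1. IgG replicate 1 lay above anti-PD-1 replicates 2 and 3, so that the groups overlapped. Its log2 fold change was 1.03 (SE 0.42, 95% interval 0.05 to 2.01, limma adjusted p = 0.395) and 1.51 without IgG replicate 1. Bmp1 met the thresholds of the study in 10 of 15 alternative fits. It did not do so without a filter on low FPKM or without IgG replicate 2, IgG replicate 3, anti-PD-1 replicate 1 or anti-PD-1 replicate 3. Pcolce (ENSMUSG00000029718, chromosome 5 from 137605103 to 137613784), the secreted glycoprotein that speeds up Bmp1 on fibrillar procollagens, had 5.34, 3.25 and 3.80 FPKM under IgG and 9.96, 3.99 and 10.9 FPKM under anti-PD-1. Anti-PD-1 replicate 2 stayed within the IgG range, and the log2 fold change was 0.78 (SE 0.35, 95% interval -0.05 to 1.60, limma adjusted p = 0.425), or 1.17 without anti-PD-1 replicate 2. Bmp1 exceeded Pcolce in 6 of 6 tumors, by 1.19 to 2.94 times.

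To see which enzymes moved with their substrate, each gene was set against the mean log2(FPKM + 1) of Col1a1, Col1a2 and Col3a1 in the same tumor. This collagen level was 6.05, 4.10 and 4.85 under IgG and 6.58, 4.73 and 5.91 under anti-PD-1, lowest in replicate 2 of either group. Relative to it, the difference between groups was -0.23 for Lox, -0.0023 for Loxl1, -0.38 for Loxl2 and 0.03 for Pcolce, with overlapping groups in all 4 (exact permutation test, p between 0.3 and 1), and against fibroblast markers other than collagens the signs of Lox, Loxl1 and Loxl2 were positive, at 0.46, 0.68 and 0.30. Pcolce was at 0.72 against the same markers, without overlap of the groups (exact permutation test, p = 0.1). Plod2 was lower than the collagens in anti-PD-1 tumors by more than in IgG tumors, at -1.93, 0.01 and -0.68 under IgG and -2.66, -2.15 and -2.38 under anti-PD-1 (difference -1.53, exact permutation test, p = 0.1). For Loxl4 the relative level was -4.02, -3.78 and -4.57 under IgG and -3.69, -2.72 and -3.48 under anti-PD-1, again without overlap (difference 0.83, exact permutation test, p = 0.1). The size of this difference depends on the added 1, and it was 1.93 with 0.1 added. Against the fibroblast markers Plod2 was at -0.85 and Loxl4 at 1.51. Loxl3 exceeded the collagens in anti-PD-1 replicates 2 and 3 only, by 1.73 and 0.62, while anti-PD-1 replicate 1 at -0.70 lay among the IgG tumors at -0.58, -0.53 and -1.05 (exact permutation test, p = 0.3). The groups overlapped for Plod1, Plod3 and Bmp1, at differences of -1.36, -0.70 and 0.29 (exact permutation test, p = 0.2, 0.4 and 0.5). These are 10 comparisons, of which none can pass 0.05 in a design of this size.

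**Figure D5:**
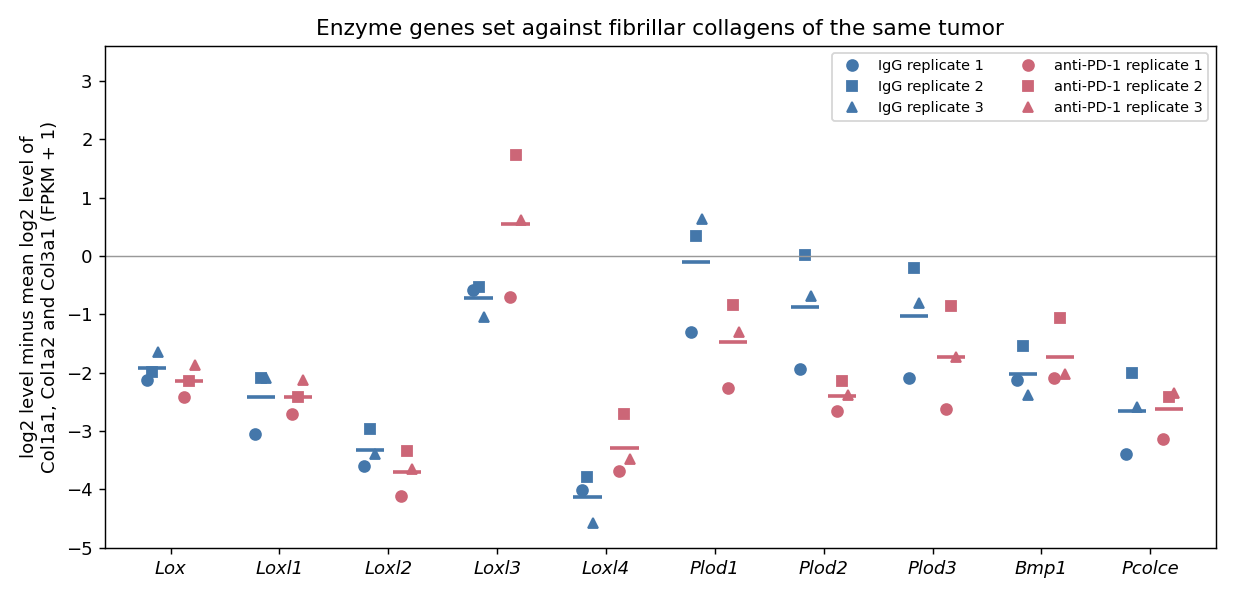
Log2(FPKM + 1) of each gene minus the mean log2(FPKM + 1) of Col1a1, Col1a2 and Col3a1 in the same tumor, with 1 point per tumor and a bar at the group mean (n = 3). The group means of Loxl1 and Pcolce nearly coincide (differences -0.0023 and 0.03), although single tumors spread widely, with Pcolce from -3.39 to -2.01 within IgG. Plod2 and Loxl4 separate the groups, and Loxl3 of anti-PD-1 replicate 2 stands highest at 1.73.

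Across the 6 tumors, the likeness of the genes can be described by Pearson's r of log2(FPKM + 1), given without a test since the tumors share groups and libraries. Lox was most like Loxl2 (r = 0.955), Loxl1 most like Pcolce (r = 0.960), Loxl4 most like Bmp1 (r = 0.989) and Loxl3 most like Loxl4 (r = 0.911). Plod1 and Plod2 were nearest to each other (r = 0.702), and Loxl3 was farthest from both (r = -0.578 and -0.676). Among 10208 protein-coding genes with a mean of at least 2 FPKM, the 3 most like Lox were Emilin1, Homer3 and Fn1 (r = 0.989 to 0.995), and Bgn and Sema4c were among those most like Loxl1 (r = 0.994 and 0.987). Loxl2 had Spon1, Tfdp1 and Col5a1 nearest (r = 0.989 to 0.996). Matrix genes (Emilin1, Fn1, Bgn, Spon1 and Col5a1) were among the nearest for these 3 oxidases. Loxl3 had Rdh10, Bhlhe40 and Cdk5 (r = 0.991 to 0.993), Loxl4 had Ercc1, Nfil3 and Atn1, and Bmp1 had P4hb, Rem2 and Gadd45g (r = 0.994 to 0.996), of which P4hb is the protein disulfide isomerase subunit of prolyl 4-hydroxylase. Plod2 had Ppp2r5b, Slc6a6 and Xbp1 nearest (r = 0.982 to 0.985), Plod1 had Ptar1, Sort1 and Acpp, Plod3 had Ttll12, Smg8 and Bcl2l14, and Pcolce had Cdkn2aip, Efnb1 and Ccn3. With 6 tumors and this many candidates, values this close to 1 are found for every member.

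The promoter stretches of Loxl4 and Plod1 are shown since they overlapped no annotated exon. These genes had log2 fold changes of opposite sign. RefSeq promoters (GRCm38.p6) were matched for 4 of the 10 genes (Loxl4, Plod1, Plod3 and Pcolce), and the 240 bases from 250 to 11 before the start were read 5′ to 3′ on the gene's strand. Capitals mark the hypoxia response core (ACGTG or GCGTG, either strand) and the GC box (GGGCGG, either strand), which did not overlap each other here. The stretches are chr19:42612817-42613056 and chr4:147936787-147937026, both on the minus strand.
Loxl4: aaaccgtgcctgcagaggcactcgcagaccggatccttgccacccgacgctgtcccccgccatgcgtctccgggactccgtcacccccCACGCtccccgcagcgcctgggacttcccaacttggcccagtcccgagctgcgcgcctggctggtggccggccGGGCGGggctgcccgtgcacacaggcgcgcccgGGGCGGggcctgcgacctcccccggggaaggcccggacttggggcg
Plod1: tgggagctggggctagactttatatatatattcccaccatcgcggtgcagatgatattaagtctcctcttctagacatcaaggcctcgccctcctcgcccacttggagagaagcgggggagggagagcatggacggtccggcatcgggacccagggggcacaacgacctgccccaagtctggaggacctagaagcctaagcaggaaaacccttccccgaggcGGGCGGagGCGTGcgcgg
Loxl4 held 1 hypoxia core and 2 GC boxes at 75.8% GC, and Plod1 held 1 of each at 60.4% GC. The hypoxia core was also found in Plod3 (4 matches) and Pcolce (1 match). Their stretches are not shown, since they overlapped exons of Znhit1 and of Pcolce itself. Among 32851 promoter stretches of this length the hypoxia core occurred in 37.4% and the GC box in 31.3%. A match to such short letters is a description of the sequence only.

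Genes that act beside the 10 enzymes were taken from lists, whose counts stand against 3.9% of all genes past the thresholds and higher, 4.53% past them and lower, and 9.3% higher without overlap. Their counts of direction stand against 50.8% of all genes with a log2 fold change above 0. Of 15 collagen prolyl hydroxylases and chaperones, all tested, 9 had a log2 fold change above 0, with a median of 0.24. One of them, P3h2, a prolyl 3-hydroxylase of basement membrane collagen, was past the thresholds of the study, with 8.93, 6.77 and 11.3 FPKM under IgG and 7.71, 3.09 and 4.51 FPKM under anti-PD-1 (log2 fold change -0.76, limma adjusted p = 0.396). The highest of the list was P4ha1, a catalytic subunit of prolyl 4-hydroxylase, at 0.91 (limma adjusted p = 0.504). Of 9 other procollagen proteinases and enhancers 5 were tested, and the N-proteinase Adamts3 stood out at 5.10, 1.20 and 2.17 FPKM under IgG and 5.22, 8.34 and 6.47 FPKM under anti-PD-1, without overlap (log2 fold change 1.12, limma adjusted p = 0.355). The lowest was Furin, the proprotein convertase that can activate Bmp1, at -0.41 (limma adjusted p = 0.464). The Bmp1 relatives Tll1 and Tll2 failed the filter. Of 5 hydroxylysine glycosyltransferases and other crosslinkers, 4 were tested and none was past the thresholds, from Tgm2 at 0.42 to Pxdn at -0.15.

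Among the substrates, 10 of 11 fibrillar collagens were tested. All 10 had a log2 fold change above 0, against 50.8% of all genes, with a median of 0.73. Dropping IgG replicate 2 put this median at 0.23, dropping anti-PD-1 replicate 1 at 0.33 and dropping IgG replicate 1 at 1.15. Col11a2 had at most 3.46 FPKM under IgG and 14.0, 5.39 and 16.5 FPKM under anti-PD-1, without overlap (log2 fold change 1.77, limma adjusted p = 0.344). Col11a1, the other chain of type XI collagen past the thresholds of the study, was at 0.67 (limma adjusted p = 0.406), and Col5a3 was lowest at 0.0015. Relative to their mean over 6 tumors, the fibrillar collagens had a median of 0.55, -1.22 and -0.46 under IgG and of 0.83, -0.57 and 0.64 under anti-PD-1, beside which Lox stood at 0.59, -1.22 and -0.14 and at 0.82, -0.75 and 0.70. Of 12 elastic fiber substrates and scaffolds 11 were tested, and 3 were past the thresholds and without overlap, against 3.9 and 9.3% of all genes, namely Efemp1 at 1.17, Mfap2 at 0.90 and Mfap4 at 0.75 (limma adjusted p between 0.344 and 0.380). Fbln2 was the lowest of that list at -0.80. Of 8 scaffolds on which processing and crosslinking take place, Fmod, the collagen-binding fibromodulin, was past the thresholds at 0.77, and Thbs1 was lowest at -0.31.

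Copper reaches the lysyl oxidases through chaperones and the pump Atp7a. Of 8 genes of copper supply 7 were tested, with a median log2 fold change of -0.11. Atox1, the chaperone that hands copper to Atp7a, had 114, 65.7 and 78.5 FPKM under IgG and 132, 118 and 145 FPKM under anti-PD-1 (log2 fold change 0.64, limma adjusted p = 0.370). Ccs, the chaperone of superoxide dismutase, was at 0.89 (limma adjusted p = 0.346), and the groups did not overlap in either gene. The importer Slc31a1 was lowest at -0.28. Hypoxia is known to induce Lox, Loxl2, Plod2 and P4ha1. Of 11 hypoxia-induced genes, all tested, 9 had a log2 fold change above 0 and none was past the thresholds, from Bnip3 at 0.88 to Ndrg1 at -0.50. The median of this list was 0.23, but -0.042 without IgG replicate 2 and 0.52 without IgG replicate 1. Of 8 TGF-beta ligands and response genes 6 had a log2 fold change above 0. Tgfb1 alone was past the thresholds at 0.98 (limma adjusted p = 0.357), and Tgfb2 was lowest at -0.18. This list had a median of 0.34, but 0.12 without IgG replicate 2 and 0.46 without IgG replicate 1.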

How the data were processed

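For each of 6 tumors, the deposited values were FPKM, listed for 54532 Ensembl genes. The submitters' processing notes name FastQC 0.11.9, cutadapt 3.5, Bowtie2 2.4.1, RSEM 1.3.1, DESeq2 1.36.0 and mm10; how FPKM was made and whether strand was used is not given in the sources used here. Gene IDs were matched to GENCODE release M21 (GRCm38) for 54495 of them. FPKM times merged exon length stepped in whole reads (within 0.1 of a whole number) for 97.0 to 97.3% of detected values, which gave the reads; Lox did not come out whole, so no reads are given for it. FPKM was divided by median-of-ratios factors (1.00 to 1.01), 1 was added, and log2 was tested with limma 3.58.1 in R 4.3.3 (eBayes with trend, two-sided, Benjamini-Hochberg over 15069 genes whose mean FPKM reached 0.5). DESeq2 was not run, since the deposited values are not counts. Alternatives were another added value (0.1), other filters (none, 2 FPKM), FPKM as deposited, quantile normalization, no trend, a replicate block, voom, removal of chromosome medians and leaving out each tumor. The members and lists were chosen with earlier results of these data known. Named beside the 10 genes were the highest, the lowest and those past the study's thresholds in each pathway list, and the 3 genes most like each member, of which 1 is not reported here.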

Additional observations from a re-analysis of the deposited data

How the results depend on the processing

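The log2 fold change of 9 of the 10 enzymes had the same sign under all alternatives (for Lox, all but voom, which could not be fitted to it), and the sign of Plod3 changed to -0.024 with chromosome medians removed and ranged from -0.051 to 0.10 with each tumor left out. The number of enzymes past the thresholds of the study was 3 higher and 1 lower. It was 2 higher and 0 lower without a filter (Bmp1 and Plod2 no longer passed), 0 lower without the trend or with chromosome medians removed, 5 higher and 2 lower (Plod1 and Plod2) with the replicate block (against 4.4 and 4.45% of all genes in that fit), and 1 to 5 higher and 0 to 1 lower with each tumor left out. Over all genes, 587 were higher and 683 lower, 450 were lower with chromosome medians removed, and leaving out each tumor gave 366 to 1001 higher and 375 to 1233 lower genes, with the most without IgG replicate 1 and the fewest without IgG replicate 2. Same-numbered tumors did not deviate together (r = -0.164, 0.00508 and 0.194), so that the block rests on a shared number only. By adjusted p, 12 genes passed without IgG replicate 1, Loxl3 among them, 1 without IgG replicate 3 and 0 in every other fit. Of the enzymes, 1 was higher without IgG replicate 2, IgG replicate 3 or anti-PD-1 replicate 1, and 5 without anti-PD-1 replicate 2.

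The median of copper supply genes was 0.12 with chromosome medians removed and ranged from -0.26 to 0.059 with each tumor left out, that of other procollagen proteinases from -0.13 to 0.24, that of TGF-beta genes from 0.12 to 0.46, that of hypoxia-induced genes from -0.042 to 0.52, that of glycosyltransferases and other crosslinkers from -0.098 to 0.31, that of prolyl hydroxylases and chaperones from 0.045 to 0.39, that of fibrillar collagens from 0.23 to 1.15, that of elastic fiber genes from 0.21 to 0.70 and that of scaffolds from 0.13 to 0.87. Relative to fibroblast markers in place of collagens, Lox was at 0.46, Loxl1 at 0.68, Loxl2 at 0.30, Pcolce at 0.72, Bmp1 at 0.97, Loxl3 at 1.95, Loxl4 at 1.51, Plod1 at -0.68, Plod2 at -0.85 and Plod3 at -0.023, and Loxl1 was at 0.068 with 0.1 added. With each tumor left out, the level relative to collagens ranged from -0.36 to -0.085 for Lox, from -0.32 to 0.16 for Loxl1, from -0.56 to -0.18 for Loxl2, from 0.67 to 1.89 for Loxl3, from 0.54 to 1.03 for Loxl4, from -1.95 to -0.96 for Plod1, from -2.06 to -1.09 for Plod2, from -1.24 to -0.26 for Plod3, from -0.043 to 0.53 for Bmp1 and from -0.33 to 0.36 for Pcolce. The shares of lysyl oxidases were not recomputed from reads, since those of Lox were not whole. The cause of these shifts was not tested. IgG replicates 2 and 3 held 25 and 22 reads of Loxl4, which limits its fold change.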
